A study of Mus musculus with 9 samples.

Results

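All livers of mice fed a high-fat diet were compared with the livers of mice fed a regular diet, whether or not the high-fat-fed mice also received an extract of ginseng flower buds. The series holds 9 microarrays of liver RNA in 3 groups of 3, so the comparison set 6 high-fat arrays against 3 regular-diet arrays and used all 9 of the 9 arrays. The mice were C57BL/6 by the protocols (the strain entry reads C56BL/6J) and 5 weeks old at the start, with no sex given in the sources used. The regular-diet group (RD) and the high-fat group (HFD) were dosed with vehicle by mouth daily over 12 weeks. The remaining group (GFB) ate the high-fat diet and received the extract at 500 mg/kg on the same schedule. All livers were taken after an overnight fast, so every group shares the fasted state. The composition of the diets is not given, and nothing states that the arrays of a group come from separate mice, so p-values measure only how far these samples spread, which may be technical.

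Values are log2 signals per gene, 1 unit being a 2-fold change. The diet difference given throughout averages the means of both high-fat groups and subtracts the regular-diet mean, with its standard error. Each high-fat group weighed equally. The difference of each high-fat group from the regular diet is given beside it, and these share the 3 regular-diet arrays. A gene was said to rise or fall where limma, a linear model with moderated variances fitted to all genes at once, gave an adjusted p under 0.05. In bulk liver, fewer cells of a type and less RNA per cell cannot be told apart.

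The liver makes cholesterol from acetyl-CoA through the mevalonate pathway. When sterols in its membranes run low, the transcription factor SREBP-2 is released and raises the genes of this pathway, among them its own gene and that of its inhibitor Insig1. During a fast the liver takes up fatty acids and burns them in mitochondria and peroxisomes, a programme led by the nuclear receptor PPAR-alpha. It also makes glucose from amino acids and secretes acute-phase proteins when cytokines reach it.

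The promoters of 4 genes that rose are shown, picked among windows that hold a motif marked here. No window was available for Sqle or Fdps. They are the 250 bases before the start of transcription in RefSeq, build GRCm38.p6, 5′ to 3′ on the strand of the gene. Capitals mark the NF-Y box CCAAT on either strand, the sterol regulatory element TCACNCCAC in Hmgcs1 and the core interferon-stimulated response element in Gbp7. The windows are chr13:119690101-119690350 on the plus strand for Hmgcs1, chr5:4104698-4104947 on the minus strand for Cyp51, chrX:72918271-72918520 on the plus strand for Nsdhl and chr3:142530086-142530335 on the plus strand for Gbp7.
Hmgcs1: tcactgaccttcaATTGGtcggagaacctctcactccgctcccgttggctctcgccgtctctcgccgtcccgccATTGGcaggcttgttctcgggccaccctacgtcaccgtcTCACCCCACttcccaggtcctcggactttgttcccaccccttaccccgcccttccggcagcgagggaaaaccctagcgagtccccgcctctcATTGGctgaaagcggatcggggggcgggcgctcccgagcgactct
Cyp51: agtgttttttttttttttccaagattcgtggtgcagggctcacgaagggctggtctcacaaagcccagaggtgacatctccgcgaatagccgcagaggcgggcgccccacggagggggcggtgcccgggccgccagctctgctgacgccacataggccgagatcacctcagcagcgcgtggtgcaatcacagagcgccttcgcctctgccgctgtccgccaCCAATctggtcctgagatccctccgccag
Nsdhl: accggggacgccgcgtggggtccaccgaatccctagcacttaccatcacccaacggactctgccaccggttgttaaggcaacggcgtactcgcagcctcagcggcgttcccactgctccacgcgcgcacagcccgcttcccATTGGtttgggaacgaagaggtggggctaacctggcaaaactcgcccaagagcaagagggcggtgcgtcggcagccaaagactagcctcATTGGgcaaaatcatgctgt
Gbp7: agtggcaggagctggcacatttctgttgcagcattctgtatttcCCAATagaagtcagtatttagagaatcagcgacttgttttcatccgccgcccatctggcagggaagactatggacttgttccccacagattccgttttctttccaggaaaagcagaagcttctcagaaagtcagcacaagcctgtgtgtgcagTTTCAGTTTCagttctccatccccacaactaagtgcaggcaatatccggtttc

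On both strands, CCAAT was found in 10 of the 12 promoter windows, and in 10 of the 10 genes, available for the sterol synthesis enzymes that rose. It was found in 37.4% of all 32851 windows (250 bases before and 50 after the start), in 43.1% of the windows of genes that rose and in 42.8% of those of genes that fell. TCACNCCAC was found in 1.24% of all windows and, among the sterol synthesis enzymes that rose, in that of Hmgcs1. It was also found in that of Ehhadh, which fell, and CCAAT was found in 3 of the 3 windows of peroxisomal oxidation genes that fell. The core interferon-stimulated response element was found in 3.44% of all windows, in 4.41% of those of genes that rose, that of Gbp7 among them, and in 5.8% of those of genes that fell. The direct repeat 1 consensus, which PPAR-alpha binds with its partner, was found in 0.0396% of all windows and in 0 of the windows of genes that rose or fell. The matches describe letters in these windows and are not measured binding sites.

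Array medians ran from 4.34 to 4.38, and the correlation between arrays was 0.991 to 0.994 inside a group and 0.987 to 0.993 across groups. On the leading principal component, which held 29.2% of the variance, regular-diet replicate 1 lay at -10.79, nearer to the high-fat arrays (5.66 to 11.71) than replicates 2 (-23.06) and 3 (-26.63). The defining hepatocyte marker Alb stood at 13.52 on the regular diet, 13.53 on the high-fat diet and 13.55 with extract. Of the other defining markers Ttr (0.09), Asgr1 (0.25) and Hnf4a (-0.14) did not pass, and Cps1 fell (-0.49, limma adjusted p = 0.0358). Of 15 measured hepatocyte markers 2 fell and 0 rose, with 3 higher and 6 lower at an unadjusted p under 0.05. Signal below 4.74, the median over genes of the mean level, is not told from background here.

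Of 22180 genes tested, 207 rose (0.933%) and 165 fell (0.744%), together 372 (1.68%). Whether they passed or not, 11217 of all genes were higher (50.6%) and 10962 lower. The counts of list members given below stand against these shares. By more than 2-fold, 41 rose and 19 fell. The 6 high-fat arrays lay entirely above or entirely below the 3 regular-diet arrays for 361 of the 372, and for 1753 of all genes (7.9%), 842 above (3.8%) and 911 below (4.11%). On its own, the high-fat diet gave 297 calls (1.34%), 182 higher (0.821%) and 115 lower (0.518%). With extract there were 98 (0.442%), 58 higher (0.261%) and 40 lower (0.18%). A gene passed in each of these comparisons, by the larger of its p-values adjusted over all genes, in 33 cases (0.149%), of which 24 rose (0.108%) and 9 fell (0.0406%). The count of 372 depended on single arrays. Leaving out regular-diet replicate 2 gave 63, replicate 3 of that group 67 and replicate 1 gave 553. Leaving out the high-fat diet arrays 1 to 3 in turn gave 208, 230 and 181, and the extract arrays 143, 145 and 243. With any 1 array left out, 44 of the 372 genes passed in every case, 28 that rose and 16 that fell.

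**Figure D1:**
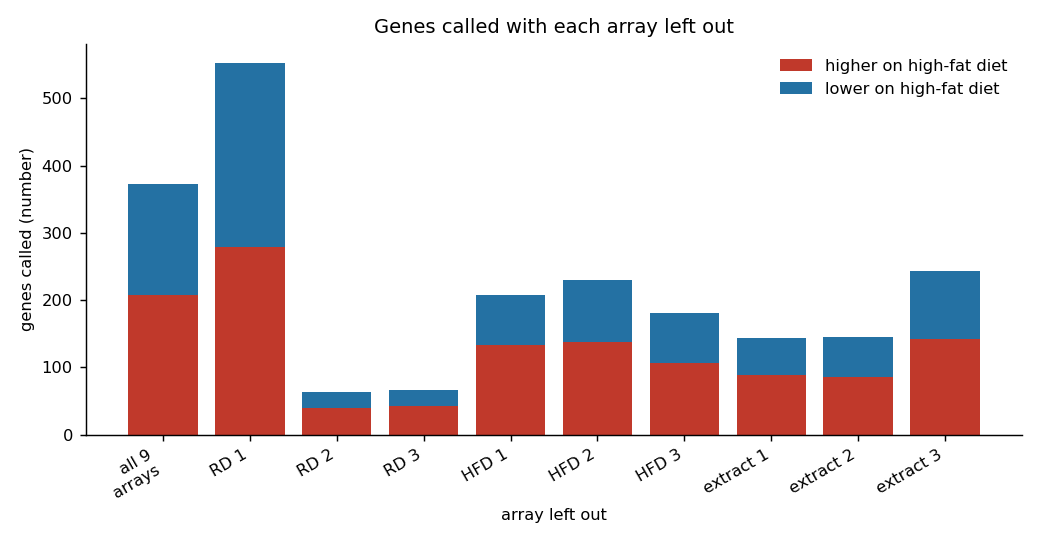
Number of genes that passed (y axis, red higher and blue lower on the high-fat diet) with all 9 arrays and with each array left out in turn (x axis; RD regular diet, HFD high-fat diet, extract high-fat diet with extract). The bar for all arrays stands at 372, and the shortest bars, 63 and 67, are those without regular-diet replicates 2 and 3.

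Cholesterol synthesis was the gene group with the largest share of genes that passed among the 62 lists described. Of its 17 measured enzymes 12 rose (70.6%) and none fell, 16 were higher, and the median difference was 0.99, against 0.00174 over all genes. The median stood at 0.79 on the high-fat diet and at 1.13 with extract. The 12 ran along the whole pathway. Hmgcs1, which makes HMG-CoA, rose by 1.97 ± 0.25 and Fdps, which makes farnesyl diphosphate, by 2.07 ± 0.22. Mvk and Mvd, the mevalonate kinase and decarboxylase between them, rose by 0.83 ± 0.10 and 0.68 ± 0.13. Lss (1.21 ± 0.20), which closes the sterol ring, Tm7sf2 (0.99 ± 0.13) and Dhcr7 (1.10 ± 0.14), both sterol reductases, also rose. Mvk, Mvd, Lss, Tm7sf2 and Dhcr7 lie outside the naming rule and are given to complete the pathway, with their values known.

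Sqle encodes squalene epoxidase, which oxidises squalene ahead of ring closure. Its arrays read 4.53, 4.25 and 4.69 on the regular diet, 7.37, 7.65 and 6.79 on the high-fat diet and 7.79, 8.37 and 7.77 with extract. The lowest high-fat array was more than 2 units above the highest regular-diet array. The difference was 3.14 ± 0.20, or 8.80-fold (adjusted p = 0.000677), and since the regular-diet mean of 4.49 lay below 4.74 it is a lower bound apart from the spread. Msmo1, a methylsterol oxidase, read 5.47, 6.53 and 6.03 on the regular diet, 8.22, 9.06 and 8.29 on the high-fat diet and 9.04, 9.29 and 8.75 with extract. It rose 6.79-fold (2.76 ± 0.25, adjusted p = 0.00326) with no overlap. Cyp51, the lanosterol demethylase, read 5.49, 6.31 and 6.09, then 7.88, 8.37 and 7.52, then 8.51, 8.85 and 8.36 in the same order of groups. It rose 4.87-fold (2.29 ± 0.22, adjusted p = 0.00345). Between the high-fat groups, 3 of the 17 enzymes had an unadjusted p under 0.05 with limma. Sqle (0.71) and Cyp51 (0.65) were among them, both higher with extract, and neither passed after adjustment.

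Nsdhl, a sterol dehydrogenase, was even on the regular diet, at 6.50, 6.39 and 6.30. It read 8.12, 9.13 and 8.21 on the high-fat diet and 8.69, 9.19 and 8.48 with extract, a rise of 2.24 ± 0.23 (adjusted p = 0.00408). Sc5d, the sterol C5 desaturase, rose by the same 0.77 in either high-fat group (0.77 ± 0.09, adjusted p = 0.00702). Of 9 measured genes of sterol sensing and uptake 3 rose, none fell and 3 were lower (median 0.07). Among those that rose, Srebf2, the gene of SREBP-2, read 6.84, 6.76 and 6.78 on the regular diet and 7.46 to 7.91 in the 6 high-fat arrays (0.93 ± 0.11, adjusted p = 0.00711). Insig1 rose by 1.73 ± 0.21 and Stard4, a cholesterol carrier, by 0.76 ± 0.15. Srebf1, the gene of the fatty acid regulator SREBP-1, stood at 0.93 and did not pass (adjusted p = 0.0809). None of the 8 measured LXR targets and sterol exporters passed with limma, 2 were higher at an unadjusted p under 0.05, and 0 passed with a variance trend and robust fitting.

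Omitting regular-diet replicate 2 left 6 of the 12 sterol enzymes, and omitting replicate 3 left 7. The count was 10 to 12 with any other array left out, and the list median stayed between 0.90 and 1.05. Sqle, Msmo1, Cyp51, Nsdhl, Fdps, Sc5d, Insig1 and Srebf2 passed without any 1 array. Hmgcs1 did not pass without regular-diet replicate 2 (adjusted p = 0.0573) or 3 (adjusted p = 0.0527), and Stard4 passed only without extract replicate 3 (adjusted p = 0.0191).

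**Figure D2:**
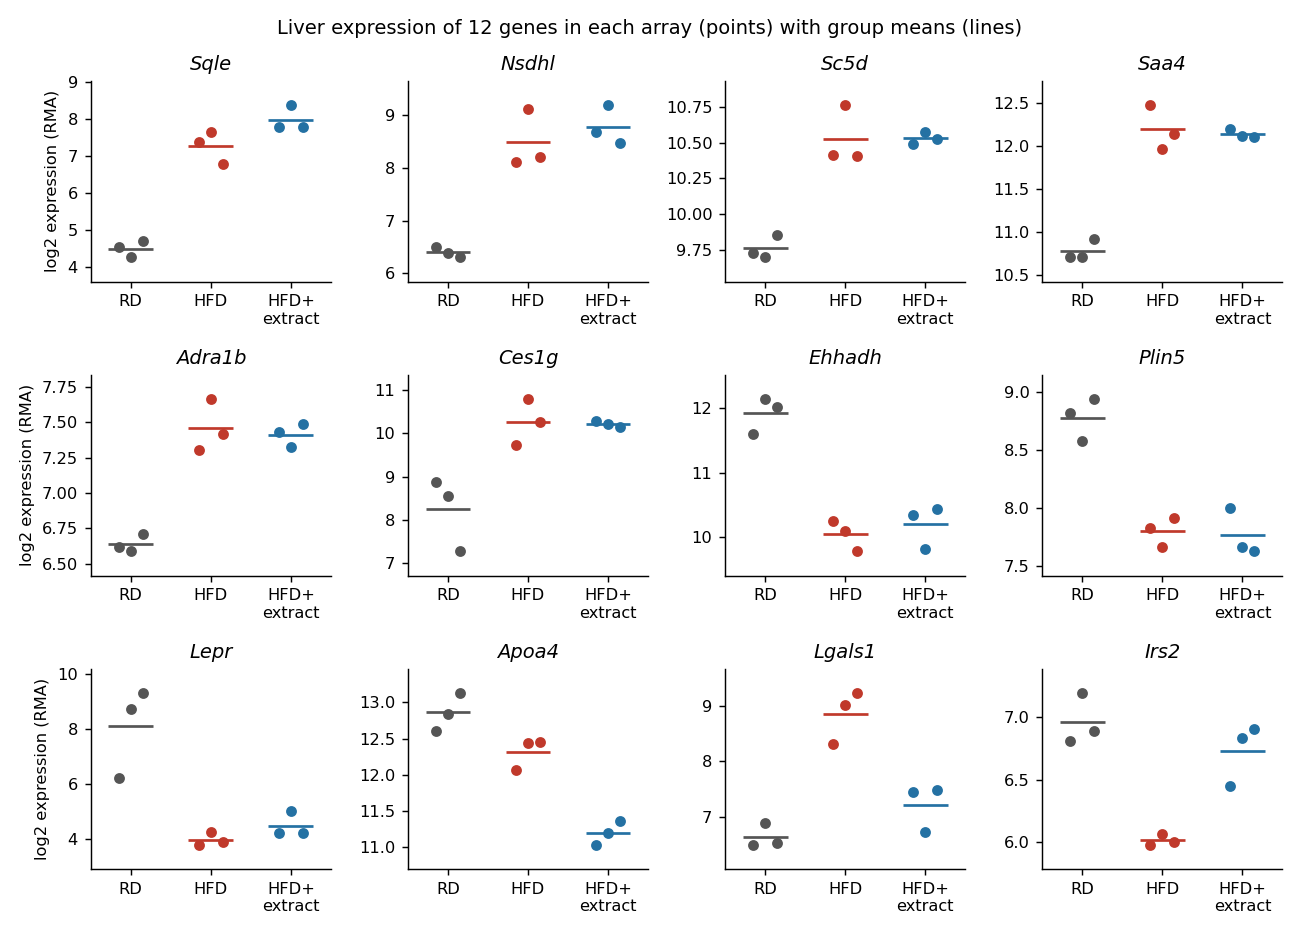
Log2 expression (y axes) of 12 genes in each array (points) with group means (lines) for the regular diet (RD), the high-fat diet (HFD) and the high-fat diet with extract (x axes), with a y range of its own for each gene. Sqle, Nsdhl, Sc5d, Saa4, Adra1b and Ces1g lay higher in all 6 high-fat arrays and Ehhadh, Plin5 and Lepr lower in all 6. Sqle, Apoa4, Lgals1 and Irs2 also differed between the high-fat groups (unadjusted).

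Genes of fatty acid oxidation were lower in both high-fat groups, and few passed. Of 18 measured enzymes of mitochondrial beta-oxidation 3 fell (16.7%, against 0.744% of all genes), none rose and 15 were lower, with a median of -0.22. The median was -0.24 on the high-fat diet and -0.21 with extract, and for 12 of the 18 the 6 high-fat arrays lay entirely below the 3 regular-diet arrays, against 4.11% of all genes. Hadha, the alpha subunit of the trifunctional protein, read 11.35, 11.57 and 11.51 on the regular diet and 10.97 to 11.10 in the high-fat arrays, a fall 1.37-fold in size (-0.46 ± 0.06, adjusted p = 0.0131). Its partner Hadhb (-0.59 ± 0.12, adjusted p = 0.0442) and Etfb, an electron carrier (-0.37 ± 0.08, adjusted p = 0.0476), were the others. The Hadhb means of 4.51 and 4.68 in the high-fat groups lay below 4.74, so its difference is a lower bound apart from the spread. Cpt1a, the gate of fatty acids into mitochondria, stood at -0.43 and did not pass (adjusted p = 0.119).

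In the peroxisome and among acyl-CoA thioesterases, 3 of 22 measured genes fell (13.6%, against 0.744% of all genes), none rose and 17 were lower (median -0.24). Ehhadh, the bifunctional enzyme of peroxisomal beta-oxidation, read 11.60, 12.13 and 12.02 on the regular diet, 10.26, 10.11 and 9.79 on the high-fat diet and 10.35, 9.82 and 10.45 with extract. The groups were separated by more than 1 unit (-1.79 ± 0.17, adjusted p = 0.00345). Acot1, a fasting-induced thioesterase, was almost the same on the 3 regular-diet arrays, at 9.23, 9.30 and 9.27. It read 7.82, 7.53 and 7.13 on the high-fat diet and 7.96, 7.83 and 8.11 with extract, a fall of 2.90-fold (-1.54 ± 0.13, adjusted p = 0.00231), although similar Acot genes make the assignment of its signal uncertain. Acaa1b, a peroxisomal thiolase, fell by 0.78 on the log2 scale (adjusted p = 0.0243). None of 9 ketogenesis and fasting genes passed with limma, 2 were lower at an unadjusted p under 0.05, 1 passed with a variance trend and robust fitting, and 8 were lower.

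Ehhadh and Acot1 passed without any 1 array. Leaving out regular-diet replicate 1 gave 6 beta-oxidation genes in place of 3, and the count was 0 without replicate 2 or 3 of that group and 1 or 2 without any of the other arrays. Hadha did not pass without regular-diet replicates 2 (adjusted p = 0.0663) and 3 (adjusted p = 0.0591), and Hadhb, Etfb and Acaa1b lost their calls in 6 to 9 of the 9 omissions (adjusted p up to 0.177). For the beta-oxidation list, regular-diet replicate 1 stood at -0.12 relative to its group's mean, against 0.08 and 0.05 in replicates 2 and 3.

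Lipid storage genes moved in both directions. Of 13 measured lipid droplet genes 2 rose, 2 fell and 9 were lower. Their median was -0.01 on the high-fat diet and -0.32 with extract. For 6 of the 13 the difference between these groups had an unadjusted p under 0.05 with limma. Plin5, a droplet protein that links droplets to mitochondria, read 8.82, 8.57 and 8.94 on the regular diet, 7.83, 7.66 and 7.91 on the high-fat diet and 7.63 to 8.0 with extract, where the difference was -1.01 against -0.98 without it (SE over both 0.11, adjusted p = 0.00701). Every high-fat array was below every regular-diet array by over 0.5. Fabp2, a fatty acid-binding protein better known from intestine, fell from 10.29, 10.30 and 10.16 to between 9.26 and 9.59 (-0.83 ± 0.08, adjusted p = 0.00345). Hsd17b11, a droplet-bound dehydrogenase, fell by 0.90 and Gpat4, an enzyme that begins glycerolipid synthesis, by 0.94 on the log2 scale. Mgll, the monoglyceride lipase, fell by 0.60. Fitm1, a protein of droplet formation, read 8.71, 9.10 and 9.16 on the regular diet, 10.14, 10.18 and 10.39 on the high-fat diet and 9.70, 9.53 and 9.68 with extract (0.95 ± 0.11, adjusted p = 0.00702). Plin4 (0.94 ± 0.16) and Pparg (0.87 ± 0.17), a nuclear receptor that drives fat storage, also rose.

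Of 12 measured genes of fatty acid synthesis, Thrsp, a lipogenic nuclear protein, rose (2.00 ± 0.39, adjusted p = 0.0403), and Acacb, the acetyl-CoA carboxylase that limits fatty acid entry into mitochondria, fell (-0.67 ± 0.09, adjusted p = 0.0113). Fasn, fatty acid synthase, stood at 0.90 (adjusted p = 0.124), Scd1, stearoyl-CoA desaturase, at -0.50 (adjusted p = 0.249) and Cd36, a fatty acid transporter, at 0.77 (adjusted p = 0.143). These 3 did not pass. Of 16 apolipoprotein and lipid export genes 3 fell, namely Apoa4, Apom and Apoc2, and none rose. Plin5, Fabp2, Fitm1 and Apoa4 passed without any 1 array. Acacb did not pass without regular-diet replicate 2 (adjusted p = 0.0615), and Mgll and Apoc2 did not without regular-diet replicate 2 or 3. Apom did not without regular-diet replicate 3 (adjusted p = 0.0598), and Apoc2 did not without extract replicate 1 either. Thrsp, Hsd17b11, Gpat4, Plin4 and Pparg lost their calls in 6 to 8 of the 9 omissions (adjusted p up to 0.174).

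**Figure D3:**
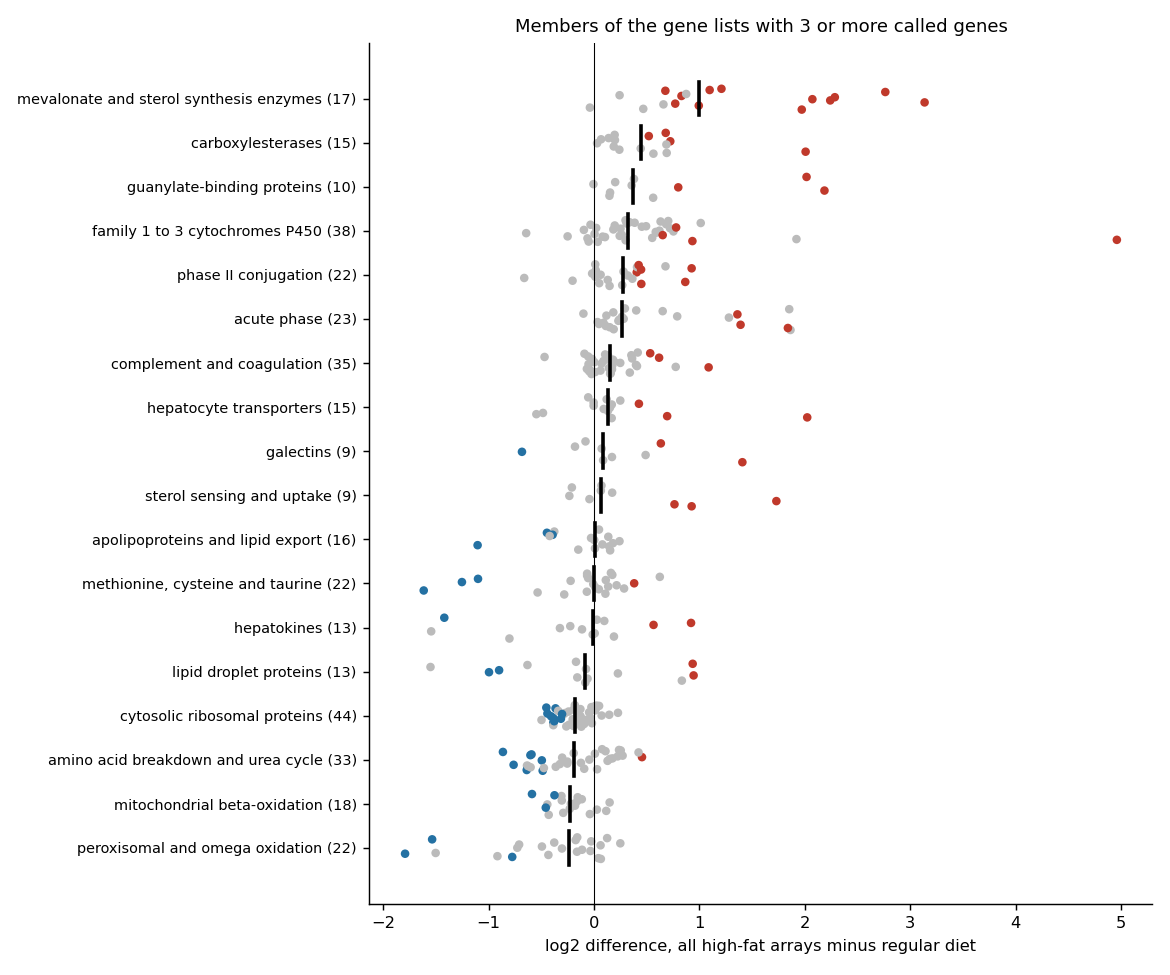
Diet difference (x axis, log2, mean of the high-fat group means minus regular diet) of each measured member of the gene lists with at least 3 genes that passed (y axis, number of measured genes in brackets). Red points rose, blue points fell, grey points did not pass, and the black tick is the list's median, which was 0.99 for sterol synthesis and -0.24 for peroxisomal and omega oxidation.

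The receptor Lepr had the largest fall of all genes that passed. Its arrays read 6.23, 8.73 and 9.30 on the regular diet, 3.77, 4.26 and 3.88 on the high-fat diet and 4.23, 5.02 and 4.21 with extract. Regular-diet replicate 1 was the array nearest to the high-fat arrays, and the groups did not overlap. Lepr encodes the leptin receptor, and its fall of 3.86 on the log2 scale (± 0.57, 14.5-fold, adjusted p = 0.0153) is a lower bound apart from the spread, since the means of 3.97 and 4.48 in the high-fat groups lay below 4.74. The call was lost without regular-diet replicate 2 (adjusted p = 0.0832) or 3 (adjusted p = 0.0587). The 7 other measured genes of leptin signalling did not pass.

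Among 17 measured genes of insulin receptor signalling Irs2 fell (-0.59 ± 0.12, adjusted p = 0.0427) and Pik3r1, the regulatory subunit of the lipid kinase, rose (0.62 ± 0.11, adjusted p = 0.0281). In the IGF axis Igfbp2, a binding protein, fell by 1.42 (adjusted p = 0.0414), with extract arrays of 9.94 and 10.09 above the lowest regular-diet array of 9.91. Ghr, the growth hormone receptor, rose by 0.49 ± 0.08 (adjusted p = 0.0173). Of 14 gluconeogenesis genes 12 were lower and 2 fell, Fbp1 (-0.44 ± 0.09, adjusted p = 0.0460), which encodes fructose bisphosphatase, and Got1, the cytosolic aspartate aminotransferase (-1.61 ± 0.31, adjusted p = 0.0407, with 1 overlapping array). Pck1, the phosphoenolpyruvate carboxykinase, did not pass (-0.80, adjusted p = 0.128). Of these calls, Ghr was lost without regular-diet replicates 2 and 3 (adjusted p up to 0.0607). The others were lost in 6 to 8 of the 9 omissions (adjusted p up to 0.177).

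Amino acid breakdown genes were lower more often than higher. Of 33 measured genes 7 fell and 1 rose (together 24.2%, against 1.68% of all genes), and 20 were lower, with a median of -0.19. In the urea cycle Cps1, which makes carbamoyl phosphate, fell (-0.49 ± 0.09, adjusted p = 0.0358), as did Asl (-0.86 ± 0.16, adjusted p = 0.0351, outside the naming rule), Arg1, the arginase (-0.49 ± 0.08, adjusted p = 0.0253), and Slc25a15, the mitochondrial ornithine carrier (-0.60 ± 0.09, adjusted p = 0.0172). Otc, the ornithine transcarbamylase of the same cycle, rose from 10.76, 10.49 and 10.72 to between 10.98 and 11.23 (0.46 ± 0.08, adjusted p = 0.0296). Hal, which breaks down histidine, fell by 0.76, Hgd, of tyrosine breakdown, by 0.64 and Aass, of lysine breakdown, by 0.59.

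Among 22 genes of methionine, cysteine and taurine metabolism, Got1, Cth and Csad fell, and Shmt2, a mitochondrial enzyme of folate metabolism, rose (0.38 ± 0.06, adjusted p = 0.0181). Cth, which makes cysteine, read 11.29, 11.84 and 11.96 on the regular diet, 10.22, 10.43 and 10.47 on the high-fat diet and 11.01, 10.61 and 10.85 with extract (-1.10 ± 0.15, adjusted p = 0.0126). Csad, which leads from cysteine to taurine, read 8.61, 9.03 and 9.37, then 7.38, 7.83 and 7.54, then 8.11, 7.96 and 7.70 (-1.25 ± 0.17, adjusted p = 0.0119). Neither gene's groups overlapped. Without regular-diet replicate 2 or 3, 0 genes of either list passed, and both lists had the most calls without regular-diet replicate 1, namely 9 and 5. Leaving out extract replicates 1, 2 and 3 gave amino acid counts of 2, 3 and 5, and leaving out high-fat diet replicate 3 gave 4.

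The acute-phase list had 3 of 23 measured genes that rose, none that fell and 22 higher (median 0.27). Saa4, a constitutive serum amyloid A, read 10.71, 10.70 and 10.91 on the regular diet, 12.47, 11.97 and 12.14 on the high-fat diet and 12.20, 12.12 and 12.10 with extract. The rise was 2.62-fold (1.39 ± 0.11, adjusted p = 0.00161) and over 1 unit between the nearest arrays. Steap4, a metalloreductase, read 7.64, 7.40 and 7.28, then 9.39, 8.98 and 9.02, then 8.56, 8.45 and 8.39, a rise of 1.36 ± 0.11 (adjusted p = 0.00191). Lcn2, lipocalin 2, rose by 1.84 ± 0.31 (adjusted p = 0.0236), but its extract arrays of 6.11, 6.28 and 7.56 overlapped the regular-diet arrays of 5.57, 6.20 and 5.34. Of 35 complement and coagulation genes F11, a coagulation protease, rose from 8.59, 8.06 and 8.07 to between 9.14 and 9.59 (1.09 ± 0.15, adjusted p = 0.0119). Masp1, a protease that starts the lectin pathway, rose by 0.62 ± 0.08 (adjusted p = 0.0101) and C4b, complement C4, by 0.53 ± 0.10 (adjusted p = 0.0312). Similar serum amyloid A genes make the assignment of Saa4 signal uncertain.

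Most genes on the interferon response list were higher, and none passed. Of its 30 measured genes 27 were higher and 3 lower (median 0.37), none passed with limma, 14 were higher and 2 lower at an unadjusted p under 0.05, and 1 passed with a variance trend and robust fitting. Without regular-diet replicate 1, 13 of them passed. The list lay at 0.33 in that array relative to the regular-diet mean, against -0.18 and -0.13 in replicates 2 and 3, at 0.44 to 0.58 on the high-fat diet and at 0.15 to 0.31 with extract. Regular-diet replicate 1 therefore lay above all 3 extract arrays for this list. Rsad2, an antiviral enzyme, read 6.10, 5.38 and 5.09 on the regular diet, 6.63, 6.56 and 6.44 on the high-fat diet and 6.21, 5.97 and 6.36 with extract (0.84, adjusted p = 0.0697, and adjusted p = 0.0056 without regular-diet replicate 1). Oas1b, an oligoadenylate synthetase that was on no list and was chosen after its values were seen, rose from 4.29, 4.30 and 4.38 to between 4.76 and 4.88 (0.50 ± 0.06, adjusted p = 0.00684), a lower bound apart from the spread since its regular-diet mean of 4.32 lay below 4.74.

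Of 10 measured guanylate-binding proteins, GTPases induced by interferon, 3 rose and 9 were higher. Gbp10 read 8.53, 7.03 and 6.70 on the regular diet, 10.10, 10.14 and 10.03 on the high-fat diet and 9.13, 9.05 and 9.18 with extract (2.19 ± 0.33, adjusted p = 0.0154). Gbp11 rose by 2.02 ± 0.41 (adjusted p = 0.0476), and Gbp7 by 0.80 ± 0.13 (adjusted p = 0.0194), from 6.73, 6.33 and 6.51 to between 6.83 and 7.63. Gbp10 and Gbp11 belong to a cluster of near-identical genes, so the assignment of their signal is uncertain. Without regular-diet replicate 2 or 3 none of the 3 passed. Gbp10 then had adjusted p = 0.0857 and 0.0587 and Gbp7 0.0892 and 0.0794, and without extract replicate 2 Gbp10 was the only one that passed. Saa4 and Steap4 passed without any 1 array, while F11 lost its call without regular-diet replicates 2 and 3, Masp1 without replicate 2 of that group, Lcn2 in 6 and C4b in 7 of the 9 omissions (adjusted p up to 0.102). The acute-phase and complement counts of 3 were each 5 without regular-diet replicate 1, and the complement count was 0 and 1 without replicates 2 and 3.

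Markers of resident macrophages were well above background, and those of lymphocytes and neutrophils mostly were not. The defining lymphocyte markers Cd3e, Cd3g, Cd8a and Ms4a1 and the neutrophil markers S100a8, S100a9 and Ly6g had means under 4.74 in every group. Of 18 lymphocyte markers Themis rose (1.47 ± 0.25, adjusted p = 0.0266), a call lost in 6 of the 9 omissions (adjusted p up to 0.0991). Of the defining markers of recruited macrophages, Itgax and Ccr2 lay under 4.74 in every group and Trem2 above 5 in every group (5.12, 5.18 and 5.06). Gpnmb and Ly6c2 lay above it on the high-fat diet (4.98 and 4.89) and below it in the other groups. None of the 15 Kupffer cell markers passed with limma, 1 was higher at an unadjusted p under 0.05, 9 were lower, and the median was -0.04. Clec4f, which defines Kupffer cells, stood at 7.82, 7.80 and 7.86 in the group means. Of 14 markers of recruited and lipid-associated macrophages only Cd9, a tetraspanin, passed, and it fell, from 6.91, 6.62 and 6.83 to between 5.89 and 6.16 (-0.76 ± 0.09, adjusted p = 0.00782). Of the 14, 10 were higher and 4 lower, with 3 higher and 2 lower at an unadjusted p under 0.05. The median of the 14 was 0.16 on the high-fat diet and -0.05 with extract. For 7 of the 14 the difference between these groups had an unadjusted p under 0.05. None of the 24 measured cytokine and inflammasome genes passed with limma, and 3 were higher and 1 lower at an unadjusted p under 0.05. None of 15 endothelial markers passed either, with 1 higher and 2 lower at an unadjusted p under 0.05. Their median was -0.25 on the high-fat diet and 0.07 with extract, and 6 of the 15 had an unadjusted p under 0.05 for the difference between these groups. The part of these cells in the results above was not tested.

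Genes of drug and lipid ester metabolism were mostly higher. All 15 measured carboxylesterases were higher, 4 rose (26.7%, against 0.933% of all genes), and the median was 0.44. Ces1g, a hydrolase of lipid esters in liver, read 8.88, 8.56 and 7.27 on the regular diet, 9.74, 10.80 and 10.27 on the high-fat diet and 10.28, 10.22 and 10.16 with extract (2.01 ± 0.33, 4.02-fold, adjusted p = 0.0236). Ces3a (0.52 ± 0.08), Ces2e (0.68 ± 0.10) and Ces2g (0.72 ± 0.14) were the others, and near-identical members make the assignment of signal within this family uncertain. Of 38 cytochrome P450 genes and their regulators 4 rose (10.5%, against 0.933% of all genes), none fell and 32 were higher (median 0.32). Cyp2b9 had the largest difference of any gene, 4.96 ± 0.95 (adjusted p = 0.0402), a lower bound apart from the spread since its regular-diet mean was 4.01. Its arrays read 5.00, 3.47 and 3.56 on the regular diet, 6.52, 11.37 and 10.41 on the high-fat diet and 9.08, 9.14 and 7.30 with extract, so the high-fat arrays did not overlap the others but spread widely. Cyp2c50 (0.93 ± 0.13) and Cyp2r1, a vitamin D hydroxylase (0.65 ± 0.11), rose, and so did Cyp2c54 (0.78 ± 0.16), with overlap.

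Of 22 phase II genes, which attach sulfate, glucuronate or methyl groups, 6 rose (27.3%, against 0.933% of all genes). Sult1b1, a sulfotransferase, rose by 0.87 ± 0.12 (adjusted p = 0.0132), and Ugt3a2, a glycosyltransferase, rose from 10.12, 10.02 and 10.08 to between 10.46 and 10.52 (0.42 ± 0.05, adjusted p = 0.0101). Slc22a7, an organic anion transporter, rose by 2.02 ± 0.35 (adjusted p = 0.0267) and Abcc3, an export pump, by 0.69 ± 0.10 (adjusted p = 0.0153). None of the 13 bile acid genes passed with limma, with 3 higher and 2 lower at an unadjusted p under 0.05 and 0 with a variance trend and robust fitting. Cyp7a1, which starts the making of bile acids from cholesterol, did not pass (0.17, adjusted p = 0.889). Without regular-diet replicate 2 none of the carboxylesterase, P450 or phase II genes passed. Without regular-diet replicate 3 the counts were 1, 0 and 1, and the P450 count was 8 without regular-diet replicate 1. Without extract replicate 1 they were 2, 1 and 2, and without extract replicate 2 they were 2, 2 and 2. Leaving out regular-diet replicate 1 gave 3 phase II genes, while leaving out high-fat diet replicate 3 gave 2 carboxylesterases and 3 phase II genes, and extract replicate 3 also gave 2 carboxylesterases. Slc22a7 lost its call in 7 of the 9 omissions (adjusted p up to 0.0978) and Abcc3 without regular-diet replicates 2 and 3 (adjusted p up to 0.068). Cyp2b9 passed only without regular-diet replicate 1 or high-fat diet replicate 1 (adjusted p up to 0.163).

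**Figure D4:**
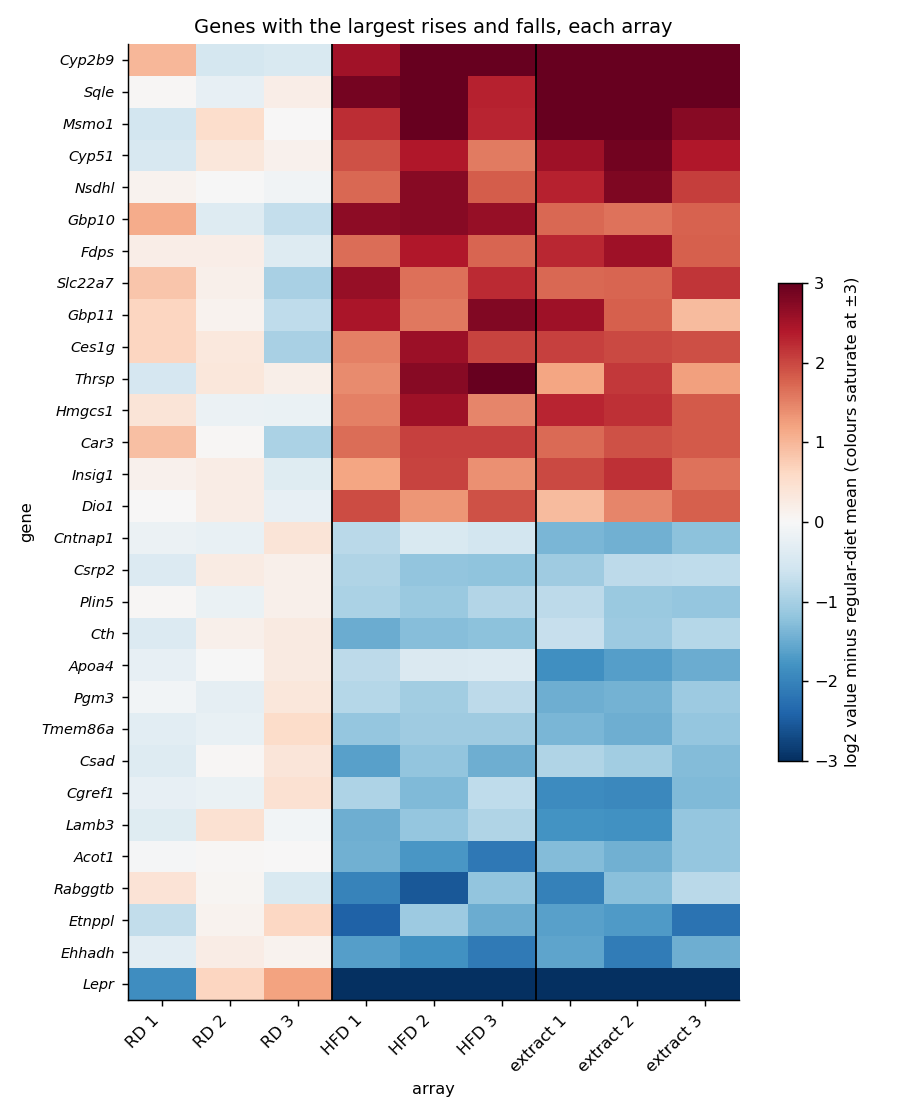
Log2 value minus the regular-diet mean (colour, saturating at 3 units either way) of 30 genes (y axis), the 15 largest rises and 15 largest falls of genes that passed without overlap, in each array (x axis; RD regular diet, HFD high-fat diet, extract high-fat diet with extract). Cyp2b9, Sqle and Msmo1 lie at the top, Ehhadh and Lepr at the bottom, and regular-diet replicate 1 is nearer to the high-fat arrays for Lepr, Gbp10 and Cyp2b9.

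Genes of protein synthesis and turnover were slightly lower. Of 44 measured cytosolic ribosomal proteins 9 fell (20.5%, against 0.744% of all genes), none rose and 36 were lower, with a median of -0.18. For 22 the 6 high-fat arrays lay entirely below the others, against 4.11% of all genes. Rpl7 read 8.92, 8.91 and 9.01 on the regular diet, 8.41, 8.37 and 8.42 on the high-fat diet and 8.66, 8.70 and 8.69 with extract (-0.41 ± 0.06, adjusted p = 0.0119). Rpl14 and Rps24 fell by 0.39 and 0.38. Of 39 oxidative phosphorylation genes 2 fell (5.13%, against 0.744% of all genes) and 33 were lower (median -0.14). Cox5a, a cytochrome oxidase subunit, was among those that fell (-0.38 ± 0.06, adjusted p = 0.0227). Of 30 proteasome subunits 1 fell (3.33%, against 0.744% of all genes) and 27 were lower. In the endoplasmic reticulum the direction was opposite. Of 28 stress and folding genes 25 were higher (median 0.39). For 10 the 6 high-fat arrays lay entirely above the others, against 3.8% of all genes. The 1 that rose (3.57%, against 0.933% of all genes) was Canx, the chaperone calnexin (0.43 ± 0.09, adjusted p = 0.0448). None of the ribosomal, oxidative phosphorylation, proteasome or endoplasmic reticulum genes passed without regular-diet replicate 2 or 3. Oxidative phosphorylation also had 0 without extract replicate 1 or 2, the proteasome 0 without high-fat diet replicate 1 or extract replicate 2, and the endoplasmic reticulum list 4 without regular-diet replicate 1 and 0 without any other array. The ribosomal count was 4 without extract replicate 1, 5 without high-fat diet replicate 1 or 2 and 6 to 8 in the rest.

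Small nucleolar RNAs, which guide the modification of ribosomal RNA, were picked out by their symbols after their values were seen. Of 78 measured, 23 fell (29.5%), none rose and 73 were lower (median -0.38). The median was -0.41 on the high-fat diet and -0.35 with extract. Snora73b read 10.93, 10.81 and 10.39 on the regular diet, 9.21, 8.76 and 9.65 on the high-fat diet and 9.05, 8.92 and 9.06 with extract (-1.60 ± 0.18, adjusted p = 0.00702). The near-identical Snora73a fell by 1.55 (adjusted p = 0.00865), and the assignment of signal between them is uncertain. Snora73b and Snord72 (-0.70 ± 0.09, adjusted p = 0.0101) were the 2 that passed without any 1 array. How much RNA of this size each extract kept was not measured.

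Several of the largest changes lay outside these groups. Dio1, the deiodinase that activates thyroid hormone, read 8.66, 8.86 and 8.40 on the regular diet, 10.60, 9.95 and 10.55 on the high-fat diet and 9.60, 10.11 and 10.44 with extract (1.57 ± 0.20, adjusted p = 0.0101). The groups were apart by more than 0.5, and the call was lost without regular-diet replicate 3 (adjusted p = 0.0547). Foxq1, a forkhead transcription factor, read 5.76, 5.98 and 5.51, then 6.85, 6.18 and 7.33, then 8.32, 8.08 and 7.06 (1.55 ± 0.30, adjusted p = 0.0408). It was highest with extract and lost its call in 7 of the 9 omissions (adjusted p up to 0.15). Car3, a carbonic anhydrase of muscle, fat and liver, rose (1.87 ± 0.32, adjusted p = 0.0252), and Etnppl, which breaks down phosphoethanolamine, fell (-1.76 ± 0.34, adjusted p = 0.0402). These calls were lost in 6 and 7 omissions (adjusted p up to 0.154). Pgm3, an enzyme that makes the sugar donor UDP-GlcNAc, fell by 1.11 on the log2 scale (adjusted p = 0.0101) and passed without any 1 array. None of the 13 glycolysis and glycogen genes passed with limma or with a variance trend and robust fitting, although 11 were higher (median 0.29), with 5 higher and 1 lower at an unadjusted p under 0.05.

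Whether a diet difference depended on the extract was tested as the difference between the high-fat groups, extract minus no extract. Among the 372 genes 0 passed by limma, and 99 had an unadjusted p under 0.05 (26.6%), against 1327 of all genes (5.98%). Over all genes 1 passed (0.00451%), Ces2a, which is not among the 372. The diet and extract estimates are uncorrelated by construction but use the same variance estimate of each gene. For 311 of the 372 (83.6%) the 95% interval of the extract difference lay within the size of the diet difference, and for 66 within 0.5 times that size. These genes were called for a diet difference large against the same variance estimate, which makes the first count high beforehand. The share therefore cannot show whether the diet differences depend on the extract. The 207 genes that rose had a median of 0.65 on the high-fat diet and 0.54 with extract, and the 165 that fell had -0.51 and -0.45.

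The genes whose intervals were narrowest around no extract difference were Adh4, Cdc42ep5 (with every group mean below 4.74), Adra1b, Masp1, Sc5d, Cd9, Kif21a and Hsd3b2. Adh4, an alcohol dehydrogenase, read 9.67, 9.45 and 9.47 on the regular diet, 10.25, 10.20 and 10.23 on the high-fat diet and 10.13, 10.21 and 10.22 with extract. Its diet difference was 0.67 ± 0.07 (adjusted p = 0.00385), and the extract difference was -0.04 (95% interval -0.21 to 0.13). Adra1b, the alpha-1B adrenergic receptor of hepatocytes, read 6.62, 6.59 and 6.71, then 7.31, 7.66 and 7.42, then 7.43, 7.32 and 7.48. It rose by 0.80 ± 0.09 (adjusted p = 0.00538) with an extract difference of -0.05 (-0.27 to 0.17). For Sc5d the interval was -0.23 to 0.23, for Plin5 -0.33 to 0.26 and for Saa4 -0.33 to 0.23. Each of these intervals stops short of an extract difference as large as the gene's diet difference, and smaller extract differences lie inside it. Adh4, Adra1b and Sc5d were picked for narrow intervals beside a diet difference of at least 0.58. For them the first part followed from the choice and is not a result. Plin5 and Saa4 were called for a diet difference large against the same variance estimate. Their intervals were therefore likely beforehand to stop short of it, which is not a result either.

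Other genes that passed in each high-fat group on its own, chosen after their values were seen, were Slc23a1, Tlcd2, Gamt, Cyb5r3 and Ly96. Slc23a1, a vitamin C transporter, read 8.36, 8.09 and 8.28 on the regular diet, 9.56, 9.51 and 9.52 on the high-fat diet and 9.11, 9.15 and 8.95 with extract (1.06 ± 0.08, adjusted p = 0.00122). Tlcd2, a membrane protein, rose by 1.36 ± 0.12 (adjusted p = 0.00231), Cyb5r3, a reductase that serves sterol and fatty acid desaturation, by 0.96 ± 0.09 (adjusted p = 0.00345), and Gamt, the enzyme that completes creatine, by 1.04 ± 0.12 (adjusted p = 0.00702). Ly96, the partner of Tlr4 in sensing endotoxin, read 5.94, 5.63 and 5.82, then 6.73, 6.87 and 6.59, then 7.21, 7.16 and 6.83 (1.10 ± 0.11, adjusted p = 0.00385). All 5 passed without any 1 array.

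At the other end stood the 8 genes with the smallest p for the extract difference, none of which passed for it. Cxcl1, a neutrophil-attracting chemokine, read 5.40, 5.39 and 5.30 on the regular diet, 6.30, 6.10 and 6.20 on the high-fat diet and 5.33, 5.42 and 5.59 with extract. Its difference was 0.83 on the high-fat diet and 0.08 with extract, and the value over both was 0.46 (adjusted p = 0.0239). The extract arrays overlapped the regular-diet arrays. Lgals1, galectin 1, read 6.49, 6.88 and 6.52, then 8.32, 9.01 and 9.24, then 7.45, 6.72 and 7.48, with 2.23 on the high-fat diet and 0.59 with extract. Themis, a gene of T cells, read 3.82, 4.40 and 4.13, then 6.35, 6.66 and 6.87, then 4.74, 3.82 and 5.06. Its means of 4.12 on the regular diet and 4.54 with extract both lay below 4.74, so the difference of 2.51 on the high-fat diet is a lower bound apart from the spread, and that of 0.42 with extract is between levels not told from background. Irs2, an insulin receptor substrate, stood at -0.95 on the high-fat diet and at -0.24 with extract, where its arrays of 6.45, 6.83 and 6.90 overlapped the regular-diet arrays of 6.81, 7.19 and 6.89.

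Apoa4, an apolipoprotein of lipid-rich particles, went the other way. It read 12.61, 12.85 and 13.13 on the regular diet, 12.07, 12.44 and 12.45 on the high-fat diet and 11.03, 11.20 and 11.36 with extract, so it was lowest with extract (-0.54 and -1.66 in the respective groups, adjusted p of the extract difference 0.15). Apoc2, which activates lipoprotein lipase, did likewise at -0.18 and -0.60. Slc13a3, a carboxylate transporter, differed by 1.5 on the high-fat diet and by 0.57 with extract, and Tmem184c by 1.16 and 0.70. Of these 8 genes, Apoa4 and Tmem184c passed for the diet difference without any 1 array.

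**Figure D5:**
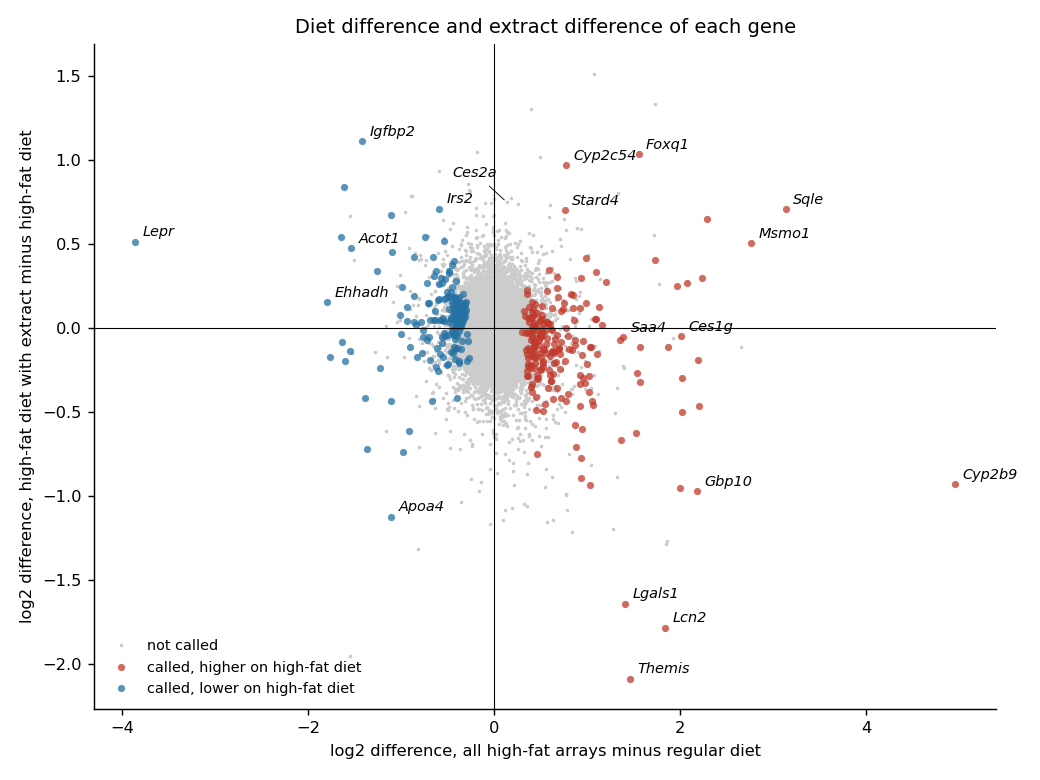
Diet difference (x axis, log2, mean of the high-fat group means minus regular diet) against extract difference (y axis, log2, high-fat diet with extract minus high-fat diet) of 22180 genes. Red genes rose and blue genes fell by the diet difference, grey did not pass, and Ces1g, Saa4 and Ehhadh lie near 0 on the y axis while Themis, Lcn2, Lgals1 and Apoa4 lie more than 1 unit below it.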

How the data were processed

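The authors deposited log2 expression per probe set from whole-transcript arrays of total liver RNA. The submitters' processing notes name RMA (robust multi-array averaging) and the oligo package, without versions. RMA corrects background and quantile-normalizes the arrays, so a shift shared by most genes would have been removed. Of 41345 probe sets, 23521 had 1 gene symbol in the platform annotation, 1814 several and 16010 none. The highest-mean probe set stood for each of 1082 genes with more than 1, which left 22180 genes, and 21994 symbols equalled RefSeq's (GRCm38.p6, names and promoters only).

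A mean for each group was fitted with limma 3.58.1 in R 4.3.3 on all 9 arrays (6 residual and 3.28 prior degrees of freedom), two-sided, with Benjamini-Hochberg adjustment over all genes. An exact permutation test of 3 against 6 arrays cannot go below p = 0.0238. Neither scan dates nor batches were used here, and precision is limited by there being 9 arrays. The procedure was tested on simulated data.

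Members and lists were chosen with earlier results of these data known. Named genes were the 15 largest rises and 15 largest falls without overlap (no predicted genes or small RNAs), up to 6 called genes of each list (or 2 with the smallest p where none was called), the 8 called genes with the smallest p for the extract difference, the 8 (absolute log2 difference at least 0.58) with the narrowest interval around no extract difference, and 13 fixed genes, among them Fasn, Scd1, Srebf1, Cd36, Cpt1a, Pck1, Cyp7a1, Lepr, Cyp2b9 and Ces2a. Alternatives are listed in the closing section. Same-numbered replicates did not deviate together (1 of 9 pairs above 0.1), so the numbers were not used as pairs.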

Additional observations from a re-analysis of the deposited data

Results flagged for a closer look

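Ces2a, a carboxylesterase gene, differed between the high-fat groups by a test of the difference itself. It was 0.75 higher on the log2 scale with extract than without (adjusted p = 0.0376, limma), with arrays of 9.29, 9.34 and 9.28 on the regular diet, 9.02, 9.16 and 9.02 on the high-fat diet and 9.76, 9.87 and 9.81 with extract. Its diet difference over both high-fat groups was 0.14 (adjusted p = 0.343), with -0.23 on the high-fat diet and 0.51 with extract. It did not pass for the extract difference with any 1 array left out, nor with each array shifted to the same median, nor with the replicate number as a block.

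Among the probe sets with several symbols or none, which the comparisons do not use, 4 passed for the diet difference when fitted on their own, 2 of 1814 with several symbols and 2 of 16010 with none. Of these, 2 were higher and 2 lower.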

How the results depend on the processing

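The 372 genes of the diet difference became 323 with the high-fat arrays as 1 group of 6, 551 with a variance trend and robust fitting, 707 among the brighter genes, 358 with a gene's probe sets averaged, 389 and 373 with quantile normalization once more and a median shift, 390 with array weights, 760 at an adjusted p under 0.10, 164 with a fold change of at least 1.5, and 33 where each high-fat group had to pass on its own. Of the probe sets with several symbols or none, 4 passed. With 1 array left out the count ran from 63 to 553. The share that rose, 55.6%, was 58.6% and 53.1% under the other scalings. For the high-fat diet alone the 297 genes became 597 among the brighter genes, 611 at 0.10 and 171 with the fold limit, and 58 to 452 with 1 array left out. With extract the 98 genes became 232 among the brighter genes and 216 at 0.10, and 2 to 267 with 1 array left out. The 1 gene of the extract difference became 4 among the brighter genes, 0 with the median shift, 3 with array weights, 4 at 0.10, and 0 to 3 with 1 array left out. With the replicate number as a block the counts were 231 (194 of them among the 372), 201, 68 and 1, the last not Ces2a. Each array correlated best with its own number in 3 of 9 cases. None of the 116 named genes that passed changed direction under any alternative, and 24 of them passed without any 1 array. The 116 had been called in the same arrays that the alternatives refit, so kept directions were likely beforehand.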
